A study of Mus musculus with 7 samples.

Results

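The transcripts of 38 genes for origin licensing, the replication fork and the supply of deoxynucleotides were followed in mouse embryonic fibroblasts (MEFs) that all lacked p53. The genes were taken by their symbols, and no measured value entered the rule. They are 38 of the 29955 gene rows of the deposited table, and all 38 were among the 16900 genes that entered the test because their mean over libraries reached 10 normalized reads. RNA was sequenced from 7 libraries of C57BL/6 cells grown in DMEM with fetal calf serum and antibiotics. The group called p53 KO had 3 libraries. The group called p53/Mdm2 KO, which also lacked Mdm2, had 2, and the group called Mdm2 C462A, which lacked p53 and carried the C462A substitution of Mdm2 as a knock-in, had 2. Mdm2 is a ubiquitin ligase best known for targeting p53 to the proteasome, and the substituted cysteine lies in the RING domain on which ligase activity depends. All 3 groups are thus p53-null, and no cells with p53 were compared. The series asks what Mdm2 does to gene expression where p53 is absent. Deleted alleles, embryos and passages are not described in the sources used here, so p-values measure only the spread between these libraries, which may be technical.

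Replication origins are licensed in G1, when Cdc6 and Cdt1 help load the MCM2-7 complex onto DNA as an inactive helicase. On entry into S phase the helicase is activated with the help of Mcm10 and the GINS complex, the primase and polymerases copy both strands behind it, and the sliding clamp Pcna, loaded by replication factor C, holds the polymerases on the template. Ribonucleotide reductase, thymidylate synthase, thymidine kinase and dUTPase set the supply and purity of the deoxynucleotides. Many of these genes are known targets of the E2F transcription factors, so that their transcripts rise together as cultured fibroblasts enter S phase.

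Levels are normalized reads, that is, reads scaled by the authors to a common library size and recovered here from their log2 values. Recovered totals ran from 28.5 M to 41.5 M reads, with M for reads in units of 1e6, and the lowest single count of any of the 38 genes was 198 reads, for Gins1. Trp53, which encodes p53, was read at 687.1 to 1396 normalized reads in p53 KO, 1603 to 1775 in p53/Mdm2 KO and 1339 to 1668 in Mdm2 C462A. Mdm2 was read at 1746 to 1994, 1575 to 2334 and 2033 to 2887 in the same order. A gene total can hold reads from outside a deleted part, so these values check no label. All 10 fibroblast markers on the list were read, led by Col1a1, and summed to 997076 to 2181217 normalized reads in p53 KO, 946694 to 1423833 in p53/Mdm2 KO and 1020923 to 1476642 in Mdm2 C462A.

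A pair of libraries stood apart in the replication genes, each far from the replicates of its own genotype. Averaged over the 38 genes, the log2 value relative to each gene's mean over the 7 libraries stood at 0.97 for p53 KO replicate 1 but at 0.09 and -0.09 for p53 KO replicates 2 and 3. It was -0.05 and 0.14 for p53/Mdm2 KO, and -0.21 and -0.85 in Mdm2 C462A replicates 1 and 2. p53 KO replicate 1 held the highest of the 7 values for 37 of the 38 genes, where it did so for 28.1% of all tested genes. The exception was Rrm1. Mdm2 C462A replicate 2 held the lowest value for 35 of the 38, against 21.3% of all tested genes, and the exceptions were Mcm2, Cdt1 and Cdc6. The other 5 libraries, of all 3 genotypes, lay between these extremes. Together the 38 genes took 0.504% of the reads in p53 KO replicate 1, between 0.224% and 0.288% in those 5, and 0.152% in Mdm2 C462A replicate 2. In bulk RNA, fewer cells in S phase and less RNA per cell cannot be told apart. Markers of fibroblasts and of other cell types differed between libraries too. The mean log2 level of the fibroblast markers was -1.41, 0.47 and 1.03 in p53 KO, 0.52 and -0.65 in p53/Mdm2 KO, and 0.66 and -0.63 in Mdm2 C462A. The endothelial markers that were tested had -1.70, 0.43 and 0.64 in p53 KO, 0.56 and 0.2 in p53/Mdm2 KO and -0.15 and 0.02 in Mdm2 C462A. The leukocyte markers had -0.9, -0.28 and 1.96, then 0.83 and -0.78, then 0.68 and -1.51 in the same order. Des, the 1 skeletal muscle marker tested, stood at -1.68 and 2.04 in these libraries and at -1.88 in p53/Mdm2 KO replicate 2. Tested epithelial markers had 0.22, -0.81 and -0.42 in p53 KO, 1.78 and -1.43 in p53/Mdm2 KO and -0.44 and 1.11 in Mdm2 C462A. Of the 5 neural markers, led by Map2 (Mtap2 in the deposited table), Olig2 was at 0 in all libraries, and their sum was 3480 to 9416 normalized reads in p53 KO, 1755 to 2332 in p53/Mdm2 KO and 1307 to 2196 in Mdm2 C462A. The part of these markers in the values below was not tested.

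**Figure D1:**
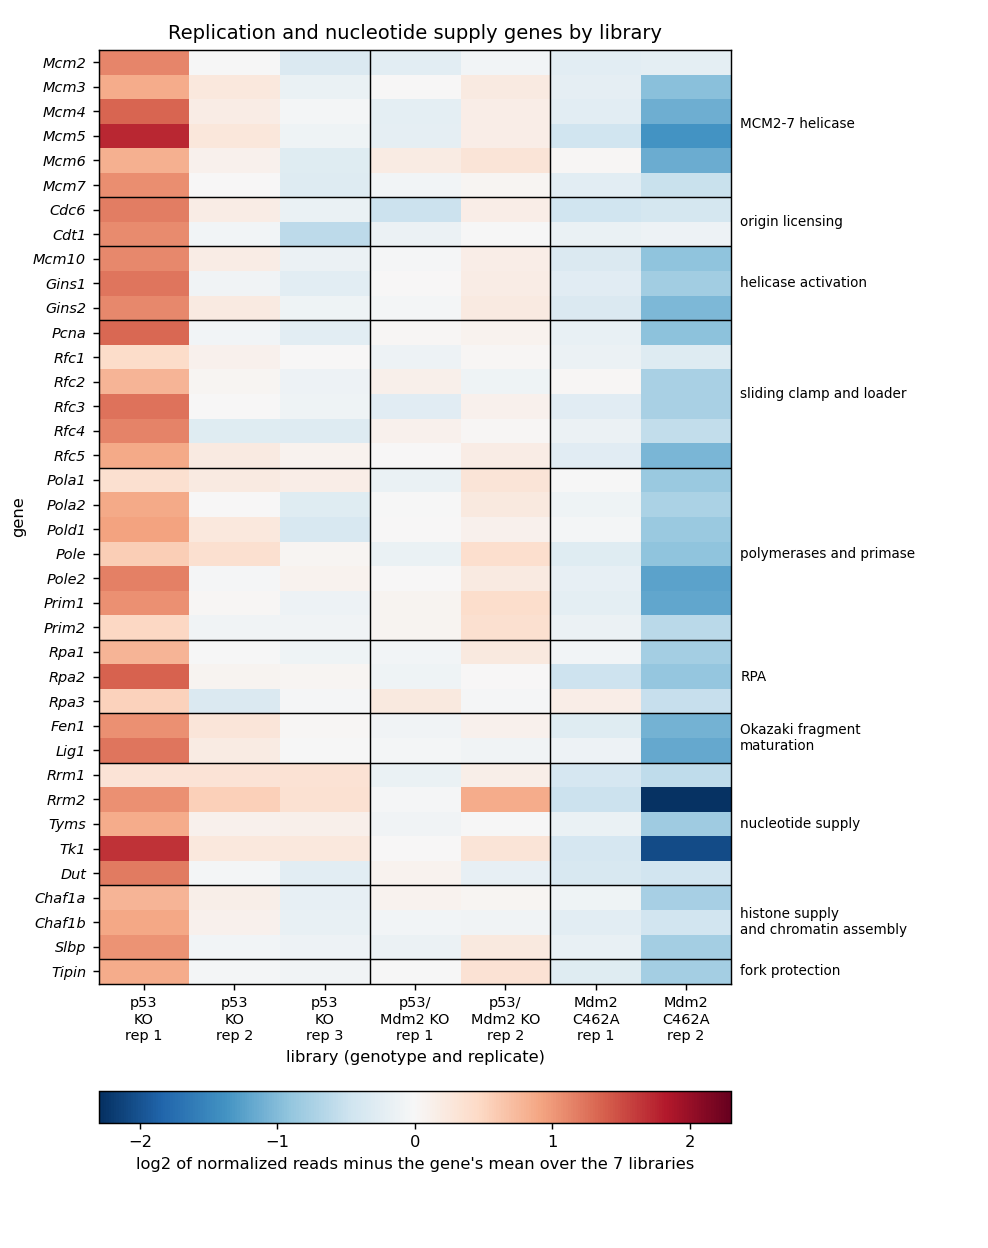
Heat map of the 38 genes (rows, ordered by role) in the 7 libraries (columns), coloured by the log2 of normalized reads minus the gene's mean over the libraries. The column of p53 KO replicate 1 is red in nearly all rows and that of Mdm2 C462A replicate 2 is blue in nearly all rows, while the 5 columns between them are pale.

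Since the genes moved together across libraries, their promoters were read for short motifs in the RefSeq table (GRCm38.p6), which gives 250 bases before and 50 after each start and held windows for 31 of the 38 genes. An exact E2F word, TTTCCCGC or TTTCGCGC or TTTGCCGC or TTTGGCGC on either strand, was found for 11 of the 31 genes. That was 31.4% of their 35 windows, against 2.3% of all 32851 windows in the table. The genes with a word were Mcm3, Mcm5, Mcm6, Mcm7, Cdc6, Cdt1, Rfc3, Pola1, Pold1, Pole2 and Lig1. The GC box GGGCGG was in 71.4% of the windows against 35.7%, the CCAAT box in 54.3% against 37.4%, and the cell cycle element CHR, written TTTGAA or TTCGAA, in 11.4% against 19.2%. Matches of different motifs, and of the E2F words on opposite strands, can share bases. A match of letters describes the window and is not a measured binding site. The 150 bases before the start are shown for 4 genes with a word, from the helicase, the licensing factors, the polymerases and the clamp loader, and for Rrm2 and Tk1, the pair with the widest range over the libraries. Each is written 5′ to 3′ on the gene's own strand and ends just before the start, with E2F words in capitals.
Mcm6 (chr1:128359706-128359855, minus strand): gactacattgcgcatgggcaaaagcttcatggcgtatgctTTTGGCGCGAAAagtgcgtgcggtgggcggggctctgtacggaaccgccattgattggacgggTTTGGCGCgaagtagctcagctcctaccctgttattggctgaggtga
Cdc6 (chr11:98908001-98908150, plus strand): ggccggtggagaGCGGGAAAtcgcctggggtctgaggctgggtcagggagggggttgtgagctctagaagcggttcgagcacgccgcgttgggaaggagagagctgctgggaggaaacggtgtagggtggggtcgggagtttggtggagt
Pola1 (chrX:93632156-93632305, minus strand): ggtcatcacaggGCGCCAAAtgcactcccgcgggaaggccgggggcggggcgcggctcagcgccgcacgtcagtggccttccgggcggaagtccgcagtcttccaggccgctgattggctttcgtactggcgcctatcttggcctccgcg
Rfc3 (chr5:151651209-151651358, minus strand): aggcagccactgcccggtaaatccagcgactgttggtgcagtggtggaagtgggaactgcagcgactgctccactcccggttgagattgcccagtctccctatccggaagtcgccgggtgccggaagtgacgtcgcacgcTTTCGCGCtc
Rrm2 (chr12:24708104-24708253, plus strand): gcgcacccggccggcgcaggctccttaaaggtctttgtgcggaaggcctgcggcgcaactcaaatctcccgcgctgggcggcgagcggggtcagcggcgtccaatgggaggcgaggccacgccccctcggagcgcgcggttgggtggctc
Tk1 (chr11:117826015-117826164, minus strand): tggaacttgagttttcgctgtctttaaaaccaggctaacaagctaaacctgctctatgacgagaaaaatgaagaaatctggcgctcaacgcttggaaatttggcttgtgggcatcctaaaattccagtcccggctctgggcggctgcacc

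Of these, Mcm6 held 3 E2F matches, of which 2 overlap on opposite strands, and the windows of Rrm2 and Tk1 held none of the 4 words. In p53 KO replicate 1 the median log2 value over the mean of replicates 2 and 3 was 1.14 for the 11 genes with a word and 0.97 for the 20 without. The median log2 difference between Mdm2 C462A and p53 KO was -0.81 and -0.77.

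The 6 subunits of the MCM2-7 helicase, which unwinds DNA at the fork, were all highest in p53 KO replicate 1, but they parted in Mdm2 C462A replicate 2. Mcm2 had 10336, 4747 and 3792 normalized reads in p53 KO replicates 1, 2 and 3, 4023 and 4563 in p53/Mdm2 KO replicates 1 and 2 and 4040 and 4057 in Mdm2 C462A replicates 1 and 2. Apart from p53 KO replicate 1 the 6 libraries were close, and all groups overlapped. Mcm5 had 11917, 4309 and 3335 in p53 KO, 3088 and 3995 in p53/Mdm2 KO and 2605 and 1381 in Mdm2 C462A. Both Mdm2 C462A values lay below all others. Mcm6 had 8172, 4983 and 3835 in p53 KO, 5281 and 5756 in p53/Mdm2 KO and 4743 and 2125 in Mdm2 C462A, so that the first Mdm2 C462A library lay within the p53 KO range and the second below it. Mcm3, Mcm4 and Mcm7 had between 1984 and 12798 normalized reads, with the same highest and lowest libraries as Mcm5 and Mcm6.

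The helicase holds its 6 subunits in equal numbers, so their transcripts were also compared per kilobase of the longest coding transcript. In p53/Mdm2 KO replicate 2 the 6 levels per kilobase lay within 1.33-fold of each other, from 1182 (Mcm5) to 1567 (Mcm4). In p53 KO replicate 1 they spread over 1.9-fold, from 1876 (Mcm6) to 3566 (Mcm4). In Mdm2 C462A replicate 2 they spread over 2.95-fold, from 408.5 (Mcm5) to 1204 (Mcm2). The ratio of Mcm5 to Mcm2 reads, which needs no length when it is set across libraries, was 1.15, 0.908 and 0.879 in p53 KO, 0.768 and 0.876 in p53/Mdm2 KO, and 0.645 and 0.34 in Mdm2 C462A. The Mdm2 C462A ratios lay below all 5 others.

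The licensing factors Cdc6 and Cdt1, which load the helicase in G1, did not share the low values of Mdm2 C462A replicate 2. Cdc6 had 1511, 753.7 and 599.7 normalized reads in p53 KO, 471.3 and 744.2 in p53/Mdm2 KO and 482.1 and 503.6 in Mdm2 C462A. Its lowest library was p53/Mdm2 KO replicate 1, and both Mdm2 C462A values lay below all of p53 KO. Cdt1 had 3857, 1749 and 1203 in p53 KO, 1661 and 1805 in p53/Mdm2 KO and 1639 and 1679 in Mdm2 C462A, with the lowest value in p53 KO replicate 3 and overlap of all groups. For both genes and for Mcm2, Mdm2 C462A replicate 2 was within 1.04-fold of replicate 1.

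Among the factors of helicase activation, Mcm10, which helps start unwinding, had 2378, 1242 and 1006 normalized reads in p53 KO, 1080 and 1227 in p53/Mdm2 KO and 881.1 and 578.6 in Mdm2 C462A. Gins2, a subunit of the GINS complex that completes the active helicase, had 2198, 1172 and 954.6, then 988.1 and 1183, then 811.9 and 498.3 in the same order of libraries. Gins1, of the same complex, ran from 174.6 to 709.9. All 3 genes had both Mdm2 C462A values below the 5 other libraries, while p53 KO and p53/Mdm2 KO overlapped.

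Among the clamp and loader genes, Pcna, the sliding clamp itself, had 14373, 5485 and 4876 normalized reads in p53 KO, 5874 and 6055 in p53/Mdm2 KO and 5093 and 2977 in Mdm2 C462A. The first Mdm2 C462A library lay within the p53 KO range. Rfc3, a small subunit of replication factor C, the clamp loader, had 2369, 995.9 and 924.3, then 827.6 and 1057, then 832.9 and 594.4 in the same order. Rfc1, its large subunit, varied least across the 7 libraries among the 38 genes, with 4431, 3534 and 3317, then 3066 and 3372, then 3019 and 2702. Its Mdm2 C462A values lay below all others by small margins, and its range over the libraries was 1.64-fold. Rfc2, Rfc4 and Rfc5 ran from 561.8 to 2786 with the same highest and lowest libraries.

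The primase and polymerase genes differed in how far p53 KO replicate 1 stood out. Pola1, the catalytic subunit of polymerase alpha, which starts each new strand with primase, had 2299, 2048 and 1992 normalized reads in p53 KO, 1614 and 2181 in p53/Mdm2 KO and 1773 and 986 in Mdm2 C462A. Its 3 p53 KO values were close together, and both Mdm2 C462A values lay below them. Pole2, an accessory subunit of the leading-strand polymerase epsilon, had 946.2, 419.5 and 447.6, then 427.7 and 491.8, then 371.9 and 180.8. Prim1, the catalytic primase subunit, had 2084, 1025 and 929.7, then 1060 and 1342, then 862 and 441.9. Prim2, the large primase subunit, had 1372, 937.4 and 928.7, then 1032 and 1267, then 897.1 and 644.7. For both primase genes the p53/Mdm2 KO values lay between p53 KO replicate 1 and p53 KO replicates 2 and 3. For Pole2, Prim1 and Prim2 both Mdm2 C462A values lay below the 5 other libraries. Pola2, Pold1 and Pole ran from 958.7 to 3662.

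RPA coats single-stranded DNA as a complex of 3 proteins, and its genes did not vary alike. Rpa2 had 2836, 1155 and 1147 normalized reads in p53 KO, 1026 and 1107 in p53/Mdm2 KO and 789.8 and 597.1 in Mdm2 C462A. The 3 groups did not overlap, in that order. Rpa3 had 810.7, 444.6 and 551.2, then 655 and 548.5, then 617.4 and 384.5, and all its groups overlapped. Rpa1 ran from 3208 to 9409.

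The genes of Okazaki fragment maturation are Fen1, which trims the flap between lagging-strand fragments, and Lig1, the ligase that joins them. Fen1 had 3379, 1981 and 1659 normalized reads in p53 KO, 1543 and 1747 in p53/Mdm2 KO and 1349 and 774.4 in Mdm2 C462A, with overlap of the first 2 groups only. Lig1 had 5635, 2722 and 2390, then 2324 and 2263, then 2212 and 1059. The groups of Lig1 did not overlap, but 5 of its 7 values lay between 2212 and 2722.

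The nucleotide supply genes were led by ribonucleotide reductase, which makes deoxynucleotides from ribonucleotides. Rrm1, its large subunit (chromosome 7), had 11237, 11192 and 11355 normalized reads in p53 KO, 8142 and 9955 in p53/Mdm2 KO and 6923 and 6029 in Mdm2 C462A. The p53 KO values were 11261 ± 84.52 (SD, n = 3), the 3 groups did not overlap, and p53 KO replicate 1 was not its highest library. Rrm2 (chromosome 12), the small subunit, whose supply is known to follow the cell cycle, had 8257, 5831 and 5108 in p53 KO, 3940 and 7256 in p53/Mdm2 KO and 2826 and 825.5 in Mdm2 C462A. Both Mdm2 C462A values were the lowest, and the p53/Mdm2 KO values lay on both sides of p53 KO replicates 2 and 3. The ratio of Rrm2 to Rrm1 reads was 0.735, 0.521 and 0.45 in p53 KO, 0.484 and 0.729 in p53/Mdm2 KO and 0.408 and 0.137 in Mdm2 C462A.

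Tk1 (chromosome 11), the thymidine kinase that salvages thymidine in dividing cells, had the widest range of the 38 genes, 13.21-fold over the libraries. It had 7000, 2611 and 2626 normalized reads in p53 KO, 2228 and 2711 in p53/Mdm2 KO and 1682 and 530.1 in Mdm2 C462A. Tyms, the thymidylate synthase of the de novo route, had 4365, 2575 and 2614, then 2300 and 2402, then 2168 and 1374, with no overlap of the 3 groups. The ratio of Tk1 to Tyms reads was 1.6, 1.01 and 1.0 in p53 KO, 0.969 and 1.13 in p53/Mdm2 KO and 0.776 and 0.386 in Mdm2 C462A. Dut, the dUTPase that keeps uracil out of DNA, had 3545, 1505 and 1298, then 1634 and 1356, then 1199 and 1140. Its 2 Mdm2 C462A values were nearly the same and lay just below the others.

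**Figure D2:**
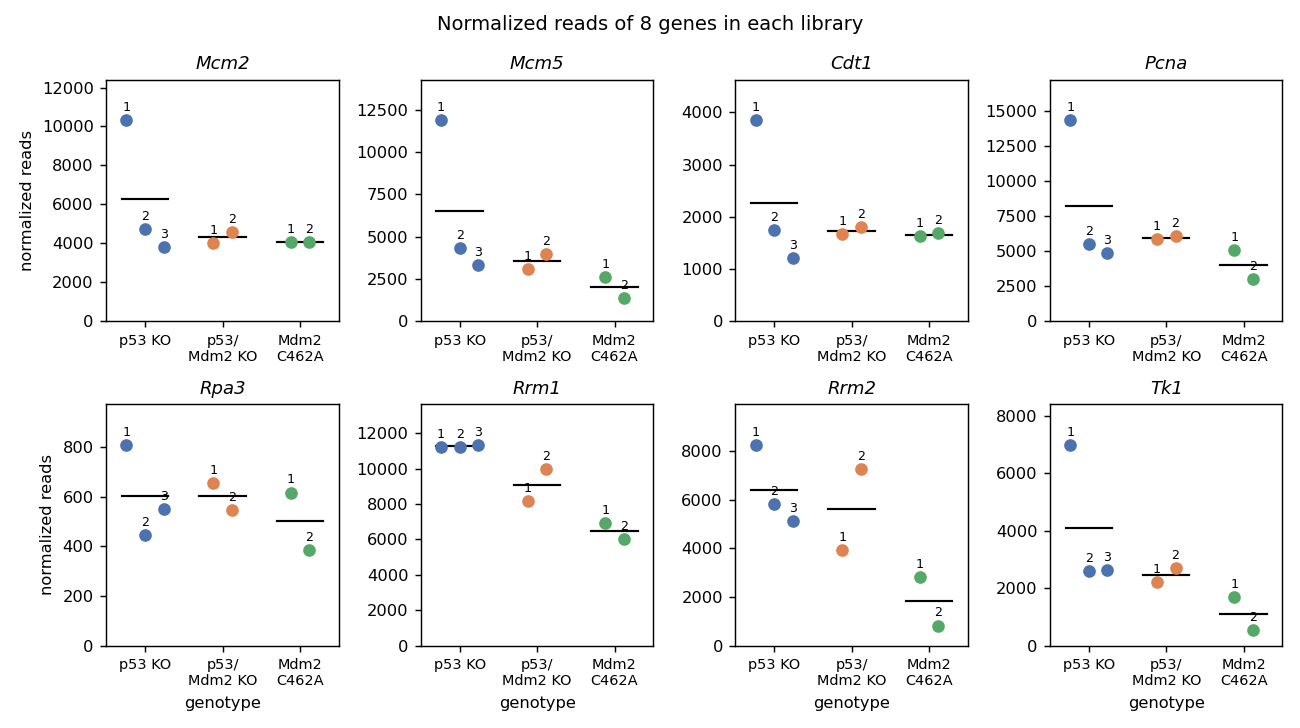
Normalized reads of 8 genes (y axis of each panel, starting at 0) by genotype, with 1 point per library labelled by its replicate number and a bar at the group mean. In the panels of Mcm2, Mcm5, Cdt1, Pcna and Tk1 p53 KO replicate 1 stands far above the other libraries, whereas the 3 p53 KO points of Rrm1 coincide and the Mdm2 C462A points of Rrm1, Rrm2, Mcm5 and Tk1 are the lowest.

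Chaf1b, a subunit of the chromatin assembly factor CAF-1 that places histones behind the fork, had 2366, 1368 and 1129 normalized reads in p53 KO, 1210 and 1203 in p53/Mdm2 KO and 1081 and 932.2 in Mdm2 C462A. Its largest subunit gene, Chaf1a, ran from 2051 to 6026. Slbp, which binds histone mRNA, had 4339, 2011 and 1939, then 1921 and 2466, then 1882 and 1231. Tipin, a fork protection factor, had 2739, 1469 and 1421, then 1502 and 1904, then 1249 and 882. For Chaf1b, Slbp and Tipin both Mdm2 C462A values lay below the 5 other libraries.

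Within genotypes the genes did not move by one common factor. p53 KO replicate 1 stood above the mean of replicates 2 and 3 by a median of 2.04-fold. The ratio was 1.00 for Rrm1, 1.14 for Pola1, 1.27 for Pole and 1.29 for Rfc1, and reached 2.67 for Tk1, 2.70 for Rfc4, 2.77 for Pcna and 3.12 for Mcm5. Mdm2 C462A replicate 2 stood at a median of 0.63 of replicate 1. Here Rrm2 had the lowest ratio, 0.29, followed by Tk1 with 0.32, Mcm6 with 0.45, Lig1 with 0.48 and Pole2 with 0.49. The ratio was 0.95 for Dut, 1.00 for Mcm2, 1.02 for Cdt1 and 1.04 for Cdc6. Cdt1, Mcm2, Cdc6 and Dut thus had a first ratio above the median and a second ratio near 1, while Rrm2 had a moderate first ratio of 1.51. No test was made of these single-library ratios.

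**Figure D3:**
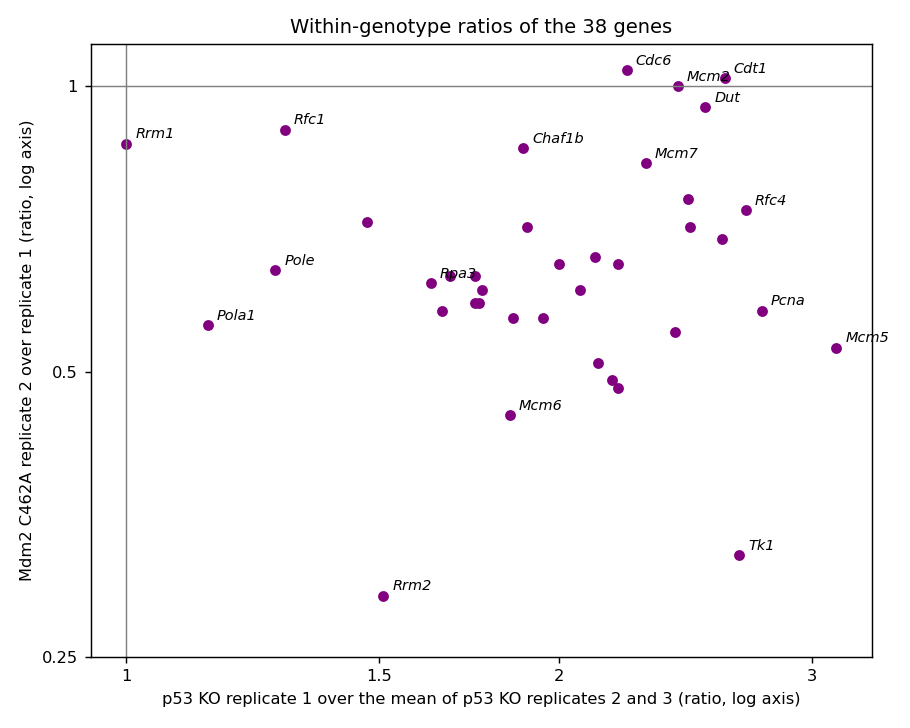
Each point is 1 of the 38 genes, placed by its ratio of p53 KO replicate 1 to the mean of replicates 2 and 3 (x, log axis) and by its ratio of Mdm2 C462A replicate 2 to replicate 1 (y, log axis), with grey lines at 1. Rrm1 lies on the vertical line, Cdc6, Cdt1, Mcm2 and Dut lie near the horizontal line, and Rrm2 and Tk1 lie far below it.

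Setting p53/Mdm2 KO against p53 KO addresses the loss of Mdm2 in cells without p53. The 38 genes had a median log2 difference of -0.25, with 35 lower and 3 higher (Mcm6, Prim2 and Rpa3), beside a median of -0.01 over all tested genes. Neither any of the 38 genes nor any other tested gene (0.0%) passed limma's test at a Benjamini-Hochberg adjusted p of 0.05, and the smallest adjusted p among the 38 was 1.0. At an unadjusted p of 0.05, 0 of the 38 were lower, against 1.49% of all tested genes. For 4 of the 38, Rrm1, Rpa2, Lig1 and Tyms, both p53/Mdm2 KO values lay below all p53 KO values, a share close to the 9.2% of all tested genes that did so. Rrm1 had a log2 difference of -0.32, Tyms of -0.39, Lig1 of -0.53 and Rpa2 of -0.54. The largest difference was that of Mcm5, -0.66. Without p53 KO replicate 1 the median was 0.04 and 16 of the 38 genes were lower. Rrm1, with -0.32, was then the lowest.

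The comparison of Mdm2 C462A with p53 KO asks what Mdm2 without ligase activity does in the same setting. All 38 genes had lower means in Mdm2 C462A, with a median log2 difference of -0.79 beside 0.01 over all tested genes. For 26 of the 38 both Mdm2 C462A values lay below all p53 KO values, against 14.4% of all tested genes. No gene passed limma's test, neither among the 38 nor among all tested genes (0.0%), and the smallest adjusted p of the 38 was 0.437. At an unadjusted p of 0.05, 14 of the 38 were lower, against 5.44% of all tested genes, and 0 were higher. Of the roles, nucleotide supply had 4 of 5 genes in this count, the MCM2-7 helicase 3 of 6 and helicase activation 2 of 3. Okazaki fragment maturation had 2 of 2, RPA 1 of 3, the sliding clamp and loader 1 of 6, and the polymerases and primase 1 of 7. Origin licensing, histone supply and chromatin assembly, and fork protection had no gene in it.

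Rrm2 had the largest difference, -2.02 on the log2 scale (SE 0.547, limma unadjusted p = 0.00901, adjusted p = 0.437). Tk1 followed with -1.92 (SE 0.606, limma unadjusted p = 0.0177, adjusted p = 0.437) and Mcm5 with -1.54. The smallest unadjusted p belonged to Rrm1, whose difference of -0.80 had an SE of 0.167 (limma unadjusted p = 0.00251, adjusted p = 0.437). Fen1 had a difference of -1.11, Rfc5 of -1.02 and Pole, the catalytic subunit of polymerase epsilon, of -0.91. Differences were smaller for Mcm2, with -0.49, and Cdt1, with -0.27, whose groups overlapped.

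The size of these differences depended on the libraries that stood apart. Without p53 KO replicate 1 the median was -0.44, with 37 of 38 genes lower, and without Mdm2 C462A replicate 2 it was -0.51, again with 37 lower. The 14 genes at an unadjusted p under 0.05 became 9, 12 and 19 without p53 KO replicates 1, 2 and 3, and 6 in a fit of those 2 groups only. Leaving out a Mdm2 C462A library leaves a single one in that group, so no count is given for it here. Without both libraries that stood apart, the median was -0.20 and 31 of 38 genes were lower, where the lone Mdm2 C462A library was taken to vary like the other groups. At an unadjusted p of 0.05, 3 of the 38 were then lower, against 3.87% of all tested genes. They were Rrm1, with -0.70 (limma unadjusted p = 0.0247), Tk1, with -0.63 (0.0287), and Rpa2, with -0.53 (0.0454), and none had an adjusted p below 0.65. Rrm1 kept most of its difference. That of Rrm2 went from -2.02 to -0.94, that of Mcm5 from -1.54 to -0.54 and that of Cdt1 from -0.27 to 0.17. Both libraries were left out because they held the highest or lowest value for most of the 38 genes. Smaller differences for most genes were therefore fixed in advance. Since p53 KO replicate 1 was not the highest library for Rrm1, the smaller shift of Rrm1 also follows from that choice.

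**Figure D4:**
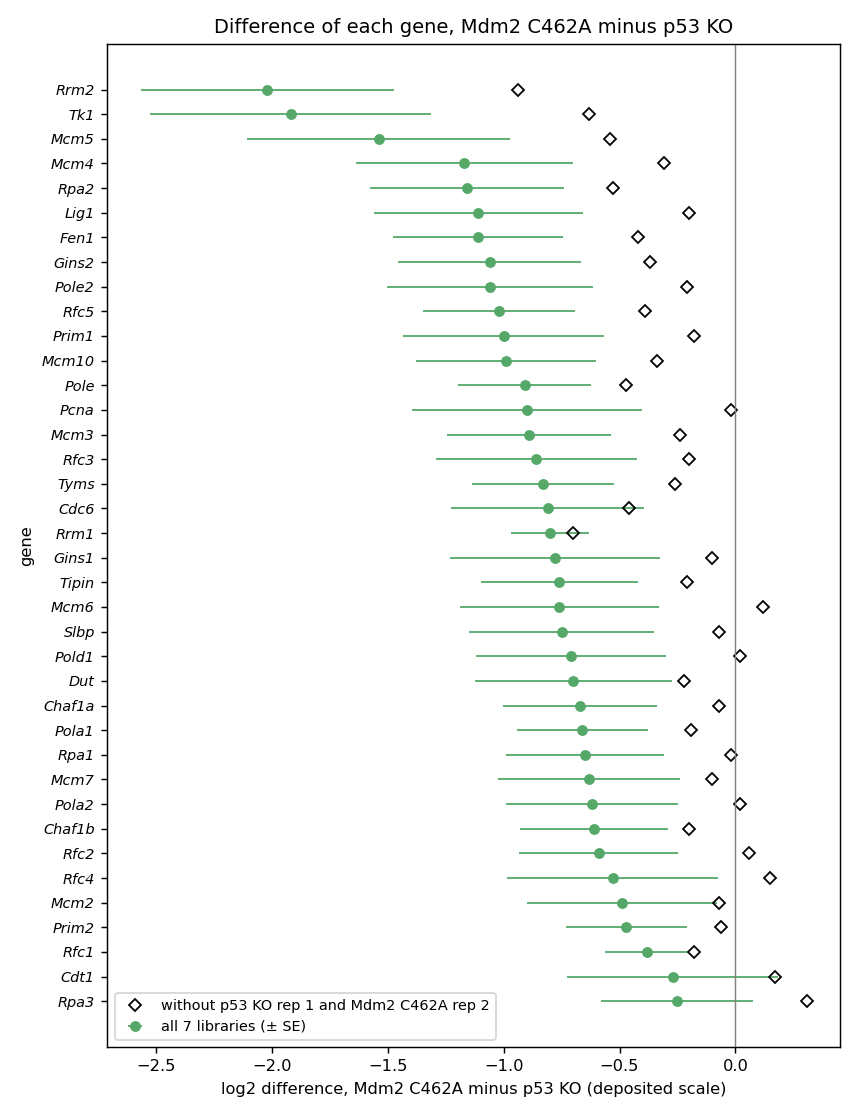
Log2 difference of each of the 38 genes (rows), Mdm2 C462A minus p53 KO, with all 7 libraries (filled points, bars are 1 SE from limma) and without p53 KO replicate 1 and Mdm2 C462A replicate 2 (open diamonds). All filled points lie below 0 and nearly all diamonds lie closer to 0, with Rrm1 moving least, from -0.80 to -0.70, and 7 genes above 0.

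The comparison between the Mdm2 mutants shares its libraries with both others. All 38 genes had lower means in Mdm2 C462A than in p53/Mdm2 KO, with a median log2 difference of -0.54 beside 0.01 over all tested genes. For 30 of the 38 the groups did not overlap, against 17.1% of all tested genes. No gene passed limma's test among the 38 or among all tested genes (0.0%), and every adjusted p of the 38 was 1.0. At an unadjusted p of 0.05, 2 of the 38 were lower, against 1.78% of all tested genes. They were the subunits of ribonucleotide reductase, Rrm2 with -1.79 (limma unadjusted p = 0.0224) and Rrm1 with -0.48 (limma unadjusted p = 0.0376). Tk1 had a difference of -1.36 and Prim1 of -0.93. Without Mdm2 C462A replicate 2 the difference was -0.92 for Rrm2, -0.54 for Tk1 and -0.46 for Prim1, and the median was -0.23, with 36 of 38 genes lower. The 2 genes at an unadjusted p under 0.05 became 0 without it or without p53/Mdm2 KO replicate 2, 1 without p53 KO replicate 2 or 3, 8 without Mdm2 C462A replicate 1 and 11 without p53 KO replicate 1.

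Genes of the same pathways outside the 38 were read from lists made by function. Of 41 other licensing and fork genes, 35 were lower in Mdm2 C462A than in p53 KO, 13 at an unadjusted p under 0.05 and 0 after adjustment, with a median log2 difference of -0.51. Claspin, a checkpoint mediator at the fork (Clspn), had the smallest p among them, with a difference of -1.71 (limma unadjusted p = 0.00845, adjusted p = 0.437), and Topbp1, which helps to fire origins, had -0.76. Of 36 other nucleotide supply genes, 29 were lower, 5 of them at an unadjusted p under 0.05, with a median of -0.30. A single gene of that list, Adssl1, an adenylosuccinate synthase gene, was higher at this threshold, with 1.09. It had 7.271, 26.92 and 24.81 normalized reads in p53 KO and 65.15 and 48.51 in Mdm2 C462A. With so few reads the deposited log2 scale understates the difference. Of 37 E2F and G1/S regulators, 24 were lower, 15 at an unadjusted p under 0.05, with a median of -0.54. Cyclins A2 and E2, the partners of the S-phase kinase Cdk2, had differences of -1.59 (Ccna2) and -1.67 (Ccne2). These counts stand beside the 5.44% of all tested genes that were lower at this threshold. Between the Mdm2 mutants 3, 1 and 6 genes of these lists were lower at this threshold, in the order given, against 1.78% of all tested genes, and 0 were higher. Between p53/Mdm2 KO and p53 KO 0 genes of the 3 lists were lower and 1, Adssl1 again with 1.16, was higher.

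All 30 mitosis genes on the list were lower in Mdm2 C462A than in p53 KO at an unadjusted p under 0.05, against 5.44% of all tested genes. Their median log2 difference was -1.28, and Cdc20, which activates the ligase of anaphase, had -1.26 (limma unadjusted p = 0.0018, adjusted p = 0.437). Their mean log2 level was 0.59, 0.36 and 0.40 in p53 KO, -0.06 and 0.35 in p53/Mdm2 KO and -0.33 and -1.32 in Mdm2 C462A. p53 KO replicate 1 was the highest library for 19 of the 30, against 37 of the 38 replication genes, 32 of the 41 other licensing and fork genes, 15 of the 36 other nucleotide supply genes and 17 of the 37 E2F and G1/S regulators. Mdm2 C462A replicate 2 was the lowest for 30 of 30, 35 of 38, 29 of 41, 18 of 36 and 21 of 37 in the same order. Over all tested genes, p53 KO replicate 1 was the highest for 28.1% and Mdm2 C462A replicate 2 the lowest for 21.3%. The part of the share of dividing cells in these values was not tested.

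**Figure D5:**
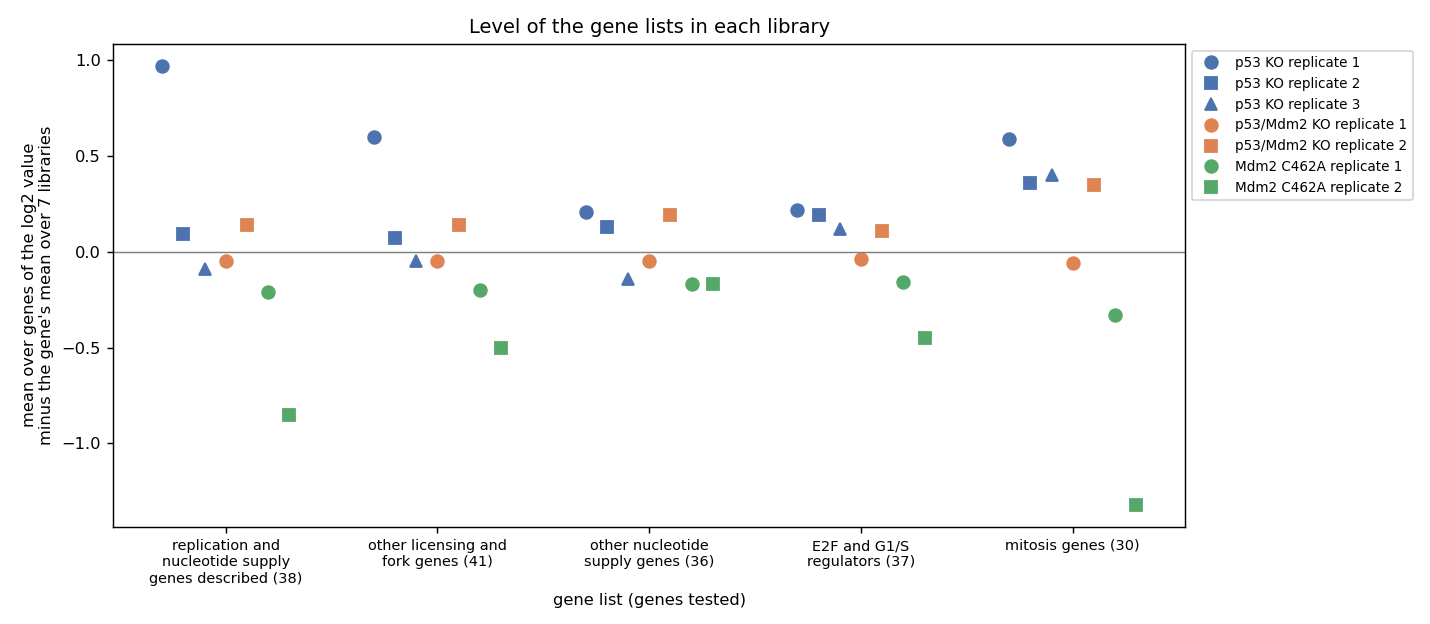
Mean log2 level of 5 gene lists in the 7 libraries, relative to each gene's mean over the libraries, with colour for genotype and symbol for replicate. p53 KO replicate 1 stands apart at 0.97 in the replication genes and lies nearer to its replicates in the mitosis genes, where Mdm2 C462A replicate 2 is lowest at -1.32.

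Reads of some of the 38 genes cannot be told from those of neighbours. No tool for counting and no strand setting is named in the sources used here, and 12 of the 38 genes share exon bases with another gene in the annotation, all but Pole2 with a gene of the opposite strand. The longest overlaps were those of Chaf1a with Ubxn6 (4648 bases), Gins2 with Gse1 (2758) and Fen1 with Gm10143 (1909). Pcna and Tyms have named pseudogenes, so their values may hold or lack reads of near-identical copies. Some of the 38 genes start close to a gene of the opposite strand, and the neighbours present in the deposited table were also read in p53 KO replicate 1. Its log2 value against the mean of replicates 2 and 3 was 1.27 for Mcm4 and -0.33 for Prkdc, whose starts lie 466 bases apart. It was 1.38 for Gins1 and 0.20 for Abhd12. For Pole it was 0.36, and for Pxmp2 -0.42, from only 39.08, 61.26 and 45.3 normalized reads in p53 KO. Smyd4, beside Rpa1 (0.83), had 0.54, and Afmid, which overlaps Tk1 (1.42), had 0.67.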

How the data were processed

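The authors deposited 1 log2 value per gene and library. Total RNA went into TruSeq RNA libraries, per the labels' protocols. The submitters' processing notes list mm9 as the build and, as tools without a stated role, Bowtie2 2.1.0, CASAVA 1.8.2 and DESeq 1.14.0. The deposited values had the form of a variance-stabilizing transformation. It was inverted to normalized reads from the value of genes with 0 reads, and in each library 100.0% of the values gave whole reads within 0.05. Means, SDs and library shares were computed from normalized reads.

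Differences were tested with limma 3.58.1 in R 4.3.3 on the deposited log2 values, with group means, a mean-variance trend, all 7 libraries, two-sided p-values and Benjamini-Hochberg adjustment over 16900 genes. A log2 difference on this scale slightly understates that of low genes. The fit was also run on simulated data with independent noise for each gene, which does not cover libraries that shift many genes together. The deposited values are on a log2 scale, and count models were not run on the recovered reads. An alternative was limma's voom on those reads. The main fit was planned without a block, and a fit with the replicate number as a block was an alternative. Deviations of libraries with the same number had correlations between -0.16 and 0.20. These do not decide whether libraries were paired, since the deviations in a group of 2 mirror each other. Other alternatives were the pseudocount, the filter, the scaling, the trend, sample weights, the groups in the fit and leaving out libraries.

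The 38 genes were taken by symbol and no value entered the rule, but these genes, the lists and the tests were chosen with earlier results of these data known. By the naming rule, values in every library were given for a fixed set of genes by role, for the genes with the 3 largest and 3 smallest differences of a comparison or a direction against the majority, and for those whose mutant groups both lay apart from p53 KO. From the other lists up to 4 genes with the smallest p were eligible. Ratios within genotypes, neighbours and promoter motifs were described without a test. Promoter windows came from RefSeq (GRCm38.p6), and transcript lengths and overlaps from GENCODE. Mcm4, Gins1, Gins2, Rfc2, Pole, Prim2 and Tipin had no window. Of the listed genes outside the 38, Ticrr and Hba-a1 were not used here. The remaining marker lists had sums far below those of the fibroblast markers, and these sums differed between libraries. Epithelial markers (6, none at 0 in all libraries) summed to between 65.66 and 1261 normalized reads and endothelial markers (5, likewise) to between 73.62 and 1056. Leukocyte markers (6, Cd3e at 0) summed to between 80.26 and 2462, skeletal muscle markers (5) to between 145.5 and 2393, and erythroid markers (3 read of 4) to between 9.278 and 23.2.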

Additional observations from a re-analysis of the deposited data

How the results depend on the processing

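No gene of the 38 passed an adjusted p of 0.05 in limma under any setting tried, and the median log2 difference kept its sign except in p53/Mdm2 KO against p53 KO. There it was -0.25 in the main fit, -0.03 with sample weights and between -0.46 and 0.04 when each library was left out in turn. The pooled SD of the mean level of single libraries within groups was 0.47. It describes single libraries, among them those that stood apart, and is not the error of a median difference. For Mdm2 C462A against p53 KO the median ran from -1.09 to -0.44 when each library was left out. It was -0.20 without p53 KO replicate 1 and Mdm2 C462A replicate 2. The number of genes lower at an unadjusted p under 0.05 was less stable. In that comparison it was 14 in the main fit, 6 in a fit of those 2 groups only, and 9 to 19 when each p53 KO library was left out. Between the Mdm2 mutants it was 2 in the main fit, 1 with quantile normalization, without the mean-variance trend, with only those groups or without both libraries, 5 with sample weights, and 0 to 11 when each library was left out. The replicate number as a block, which the labels do not tie to a shared culture, gave 24 genes in the first of these comparisons and 0 in the second, with medians of -0.46, -1.01 and -0.54 in the order of the report. Sensitivity was run gene by gene for the 19 differences given in the text for single genes of the 38, and of these that of Cdt1 between Mdm2 C462A and p53 KO reversed, from -0.27 to 0.06 with sample weights and 0.17 without both libraries, with a range from -0.64 to 0.19 when each library was left out (0.19 without p53 KO replicate 1). The cause was not tested. The other 358 values of these 19 differences kept their direction and stayed on their side of the adjusted threshold. Over all 38 genes, 7 changed sign between Mdm2 C462A and p53 KO without both libraries (Mcm6, Cdt1, Rfc2, Rfc4, Pola2, Pold1 and Rpa3), and 19 changed sign between p53/Mdm2 KO and p53 KO without p53 KO replicate 1. The groups of 2 or 3 libraries limit the precision.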
